A study of Oryza sativa with 11 samples.

Results

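In anthers of the rice mutant ostie1-1, 144 gene loci were expressed above the wild type (WT) at both anther stages examined, and were chosen by 2 conditions: every ostie1-1 library of a stage had at least 2 times the level of every WT library of that stage, and all 5 ostie1-1 libraries reached 2 FPKM. FPKM are fragment counts scaled to transcript length and library size, so levels can be compared between genes. The 144 loci were 0.257% of the 55986 loci of the table and 1.17% of the 12284 loci that reached 2 FPKM in all 5 ostie1-1 libraries. The loci were selected on the measured ostie1-1 and WT levels themselves, so their genotype differences are described here without a test. Stage 12 against stage 10 within a genotype, a contrast that the rule did not use, is tested further on. The rule's limits on the levels at each stage still shaped the values that enter that contrast.

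The material was anthers of field-grown, untreated rice (Oryza sativa). There were 3 libraries of ostie1-1 and 3 of WT at stage 10, and 2 of ostie1-1 and 3 of WT at stage 12. The labels call ostie1-1 and WT the genotypes, number the libraries as biological replicates and do not describe the lesion of the ostie1-1 allele, the cultivar or whether replicates came from separate plants. Anthers hold several cell types, so more cells of a type and more RNA per cell cannot be told apart in any value below.

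The study concerns OsTIE1, a repressor of transcription, in anther opening and in the synthesis of the hormone jasmonate (JA). In Arabidopsis, TIE proteins bind TCP transcription factors and bring a co-repressor to them, and TCP factors of the CIN class raise JA synthesis genes. JA is made in the stamen and is needed for the filament to elongate, for pollen to mature and for the anther wall to split. Stage 10 falls after the young microspores have been set free, and stage 12 close to pollen maturity.

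The table identifies genes by MSU locus IDs (LOC_Os, then the chromosome, then a number that increases along it), and neither the table nor the reference gene list pairs these IDs with names: 0 of its 39387 genes carry such an ID. The loci are therefore given by ID, with no gene name or function. For the same reason the level of OsTIE1 and of marker genes of anther tissues is not reported, and the labelled tissue was not checked against markers.

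WT stage 10 replicate 3 stood apart from its group over the whole table. Across expressed loci, its log2 levels had correlations of 0.881 to 0.903 to the 3 libraries of ostie1-1 at stage 10, but of 0.794 and 0.795 to the other WT libraries of the stage, a pair whose own correlation was 0.983. The cause was not tested. Relative depths read from the steps between low FPKM values were 0.914 to 1.17 times that of WT stage 10 replicate 1. Absolute depth is unknown. Because the rule takes the highest WT library, this library set the bar at stage 10 for most of the loci. It was the highest WT stage 10 library in 114 of the 144 (79.2%), against 30.4% of the 12140 other loci at 2 FPKM in all ostie1-1 libraries, and it was at least 2 times both other WT libraries in 83 (57.6%, against 15.9% of the other loci). When it was left out, the rule found 425 loci, which included all 144.

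The 144 loci covered a wide range of levels. Their median by library was 17.7, 18.3 and 14.7 FPKM in ostie1-1 at stage 10, against 1.07, 0.780 and 2.94 FPKM in WT at stage 10. At stage 12 it was 13.5 and 16.3 FPKM in ostie1-1, against 2.11, 1.13 and 1.53 FPKM in WT. The other loci at the 2 FPKM floor had medians of 13.9 to 17.3 FPKM in the ostie1-1 libraries and 13.7 to 21.3 FPKM in the WT libraries. Thus the raised loci lay near the ordinary level of expressed loci in the mutant. Their lower level in WT follows from the rule, which limited WT in the members and not in the other loci. Averaged over the 5 ostie1-1 libraries, 13 loci reached 100 FPKM, 95 lay between 10 and 100 FPKM and 36 lay below 10 FPKM.

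**Figure D1:**
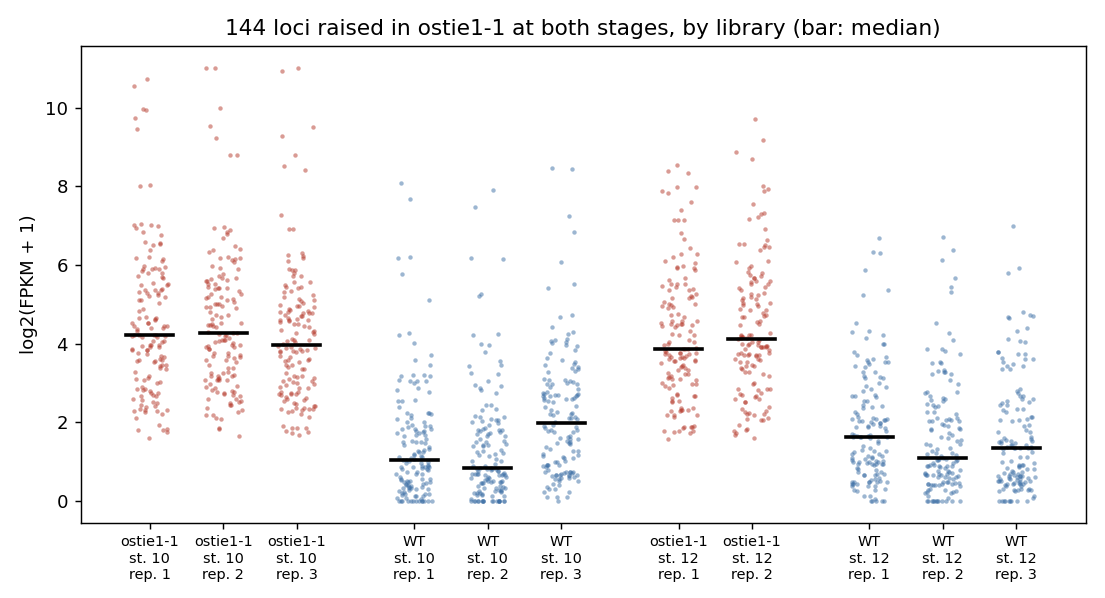
Level of the 144 loci in each of the 11 libraries, as log2(FPKM + 1), with ostie1-1 in red and WT in blue; each dot is a locus and each bar a library median. The WT stage 10 replicate 3 median (2.94 FPKM) lies above those of the other WT stage 10 libraries (1.07 and 0.780 FPKM) and below all ostie1-1 medians.

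The distance between the genotypes is given below as a gap, the lowest ostie1-1 library over the highest WT library of a stage, and as a ratio of group means. The smaller of the 2 gaps of a locus was under 3 in 70 loci, between 3 and 5 in 44, between 5 and 10 in 23 and at least 10 in 7. The median gap was 3.51 at stage 10, over 143 loci, and 4.53 at stage 12, over 140 loci, the others being listed at 0 in all WT libraries of the stage. Without WT stage 10 replicate 3 the median stage 10 gap was 9.91, over the 135 loci above 0 in replicate 1 or 2. The median ratio of means was 10.9 at stage 10 and 8.91 at stage 12.

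Loci just inside the rule differed little from those just outside. LOC_Os03g58380, LOC_Os03g48235 and LOC_Os04g58570 had a smaller gap of 2.00, 2.03 and 2.03, and LOC_Os07g43260, LOC_Os05g35460 and LOC_Os02g06910, which were not taken, had 1.99, 1.99 and 1.99. LOC_Os07g43260 missed at stage 10 alone, its stage 12 gap being 12.1. On the level, LOC_Os01g39860 entered with a lowest ostie1-1 value of 2.01 FPKM and LOC_Os01g49640 stayed out with 1.96 FPKM.

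The loci with the largest gaps were listed at or near 0 in WT. LOC_Os05g11210 had 44.0, 48.7 and 24.2 FPKM in ostie1-1 at stage 10, against 0, 0 and 0.175 FPKM in WT. In stage 12 anthers it had 3.99 and 24.6 FPKM in ostie1-1, and it was listed at 0 in all 3 WT libraries. It was thus read in every mutant library and in 1 of 6 WT libraries, with the stage 12 mutant libraries far from each other.

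LOC_Os03g14654 was the only member of the 144 with at most 0.1 FPKM in all 6 WT libraries. It had 21.9, 11.1 and 10.999 FPKM in ostie1-1 at stage 10, against 0.0866, 0 and 0.0749 FPKM in WT. At stage 12 it had 12.3 and 13.97 FPKM in ostie1-1 and was listed at 0 in the 3 WT libraries. Its mutant libraries lay close together over both stages, apart from the higher stage 10 replicate 1.

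LOC_Os03g01260 was listed at 0 in all 3 WT libraries at stage 10, where ostie1-1 had 6.21, 5.76 and 2.63 FPKM. In stage 12 anthers it had 44.5 and 35.7 FPKM in ostie1-1, against 0.747, 0 and 0.462 FPKM in WT. LOC_Os09g16580 was of the lower loci, with 5.94, 8.64 and 7.17 FPKM in ostie1-1 at stage 10, against 0, 0 and 0.167 FPKM in WT. At stage 12 it had 3.90 and 2.29 FPKM in ostie1-1 and was listed at 0 in WT. In both loci every mutant library stood above every WT library of either stage.

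LOC_Os01g10110 had the largest gap among loci above 0 in every WT library. It measured 113, 124 and 153 FPKM in ostie1-1 at stage 10, against 0.990, 0.494 and 0.571 FPKM in WT. In stage 12 anthers it had 21.3 and 24.7 FPKM in ostie1-1, against 0.913, 0.704 and 0.345 FPKM in WT. The means were 130.3 ± 20.7 and 0.685 ± 0.267 FPKM at stage 10 (SD, n = 3 each), a ratio of 190, and 23.0 ± 2.41 (n = 2) and 0.654 ± 0.287 FPKM (n = 3) at stage 12, a ratio of 35.2. Here WT stage 10 replicate 3 lay between the other WT libraries, so this locus differed from most members, in which it was the highest. LOC_Os04g59120 had 7.45, 16.7 and 13.9 FPKM in ostie1-1 at stage 10, against 0, 0 and 0.0829 FPKM in WT, and 40.5 and 13.98 FPKM in ostie1-1 at stage 12, against 0.619, 0 and 0.239 FPKM in WT.

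Of the 144, these 6 included, 21 members stayed under 1 FPKM in all 6 WT libraries and 40 averaged under 1 FPKM in WT at both stages. At the other end, 76 members averaged at least 1 FPKM in WT at both stages, so that by this mean WT anthers also carried the transcript. In some of the 76 the stage 10 mean reached 1 FPKM only through WT stage 10 replicate 3. An example is LOC_Os03g04650, with 0.432, 0.425 and 5.87 FPKM in WT at stage 10.

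The 6 most abundant members held 53.5% of the summed mean ostie1-1 FPKM of the 144. LOC_Os04g55710 led with 1712, 2074 and 1971 FPKM in ostie1-1 at stage 10, against 271, 241 and 349 FPKM in WT. At stage 12 it had 226 and 845 FPKM in ostie1-1, against 78.5, 82.4 and 27.1 FPKM in WT. It was abundant in both genotypes, and its level in ostie1-1 stage 12 replicate 1 was below that of WT stage 10.

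LOC_Os09g20000 was close to it, with 1508, 2058 and 2076 FPKM in ostie1-1 at stage 10, against 206, 176 and 353 FPKM in WT. In stage 12 anthers it had 252 and 411 FPKM in ostie1-1, against 79.0, 42.7 and 19.0 FPKM in WT. The ratio of means was 7.69 at stage 10 and 7.07 at stage 12, so the genotypes kept a like ratio while both levels were lower at stage 12.

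LOC_Os01g11430 had 988, 1025 and 732 FPKM in ostie1-1 at stage 10, against 72.2, 70.6 and 41.7 FPKM in WT, and 324 and 469 FPKM in ostie1-1 at stage 12, against 58.1, 69.0 and 54.2 FPKM in WT. WT stage 10 replicate 3 was the lowest WT library in this locus. LOC_Os07g07990 had 853, 740 and 625 FPKM in ostie1-1 at stage 10, against 53.3, 37.2 and 114 FPKM in WT, and 140 and 574 FPKM in ostie1-1 at stage 12, against 37.0, 38.5 and 24.8 FPKM in WT. Its ratio of means was 10.9 at stage 10 and 10.7 at stage 12.

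LOC_Os07g38130 and LOC_Os01g04050 completed the 6. LOC_Os07g38130 had 1004, 444 and 340 FPKM in ostie1-1 at stage 10, against 71.0, 71.9 and 150 FPKM in WT, and 335 and 258 FPKM in ostie1-1 at stage 12, against 102, 104 and 126 FPKM in WT. It lay near the limit of the rule at both stages, with gaps of 2.26 and 2.04. LOC_Os01g04050 had 697, 596 and 366 FPKM in ostie1-1 at stage 10, against 2.32, 3.18 and 44.9 FPKM in WT, and 73.0 and 148 FPKM in ostie1-1 at stage 12, against 7.72, 3.09 and 1.92 FPKM in WT. Its WT stage 10 mean of 16.8 ± 24.3 FPKM (SD, n = 3) came mainly from replicate 3.

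**Figure D2:**
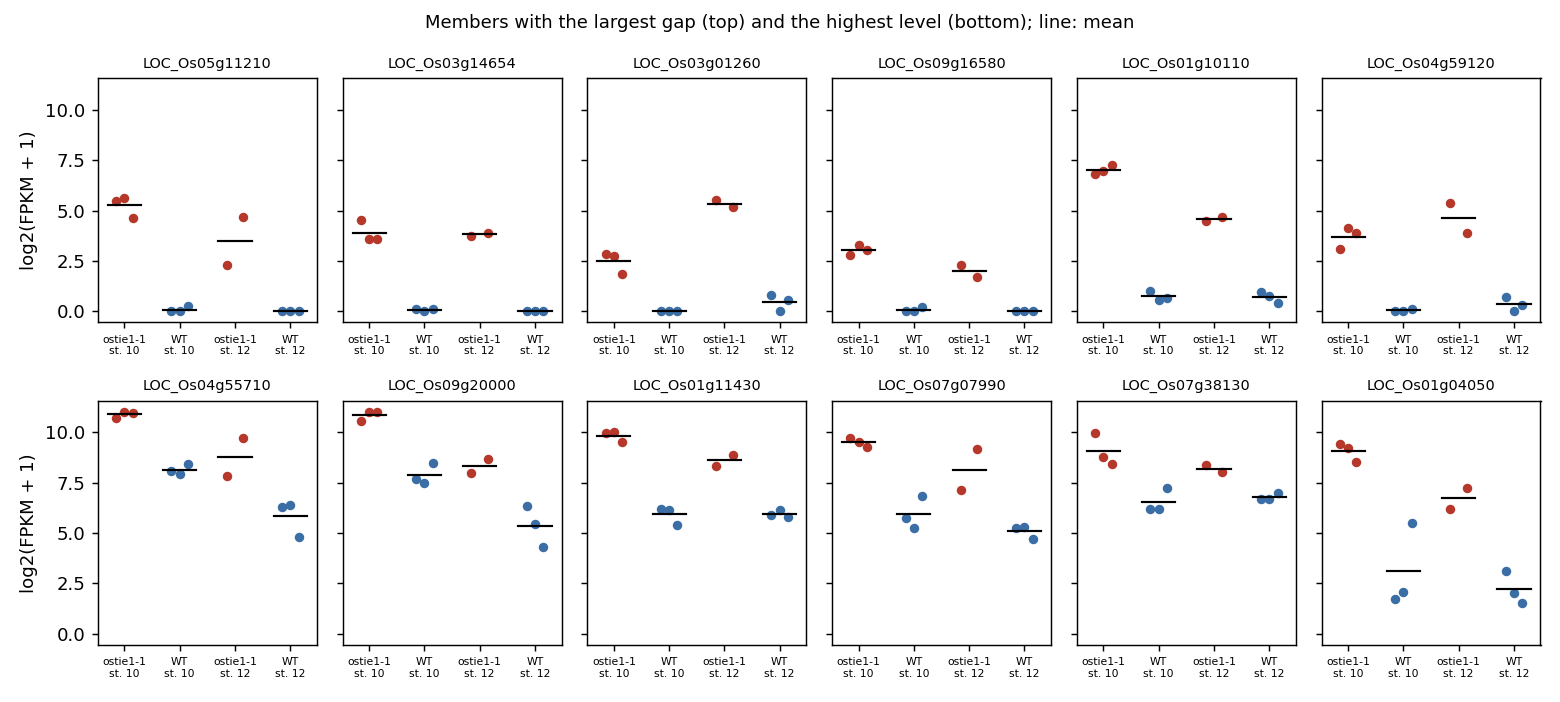
Values per library, as log2(FPKM + 1), of the 6 members with the largest gap (top row) and the 6 with the highest mean level in ostie1-1 (bottom row), with ostie1-1 in red, WT in blue and a line at each group mean of the log values. That no ostie1-1 dot falls among the WT dots of its stage is set by the rule. LOC_Os01g04050 shows 1 WT stage 10 library (44.9 FPKM) far above the others.

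The 144 loci did not all follow the same replicate library, but at stage 10 they leaned away from ostie1-1 replicate 3. This lean is a description, read from the unscaled values by which the rule chose the loci. The scaling factors of the 3 ostie1-1 stage 10 libraries were 0.789, 0.936 and 1.02. The highest ostie1-1 stage 10 library was replicate 1 in 62 loci (43.1%, against 32.8% of the other loci at the floor). It was replicate 2 in 64 (44.4%, against 22.5%) and replicate 3 in 18 (12.5%, against 44.7%). Replicate 3 was the lowest in 84 loci (58.3%, against 25.5%). Replicate 1 was at least 2 times both others in 19 members. One of these, LOC_Os10g28060, had 129.6, 58.8 and 30.6 FPKM in ostie1-1 at stage 10, against 1.05, 0.731 and 14.7 FPKM in WT. The 2 ostie1-1 stage 12 libraries differed by a median of 1.46 times over the members (1.44 times over the other loci) and by at least 2 times in 37 members.

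The sizes of the genotype ratio at the 2 stages were related over the members. Across the 139 loci with a WT mean above 0 at both stages, Spearman's rho between the log2 ratios was 0.613, a description of loci that share the 11 libraries and were all required to be high at both stages. The ratio was larger at stage 10 in 77 loci and at stage 12 in 62. It differed by more than 2 times between the stages in 24 loci where it was larger at stage 10 and in 20 where it was larger at stage 12. This difference is built from the values that chose the loci and was not tested.

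The members with the largest shift towards stage 12 were low in WT at stage 12. LOC_Os06g49190 had 95.1, 84.1 and 44.3 FPKM in ostie1-1 at stage 10, against 1.38, 1.72 and 20.6 FPKM in WT, a ratio of means of 9.41. At stage 12 it had 167 and 160 FPKM in ostie1-1, against 1.61, 1.504 and 1.37 FPKM in WT, a ratio of 109. The WT mean at stage 10 rested on replicate 3, while replicates 1 and 2 lay at the WT stage 12 level.

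LOC_Os01g49650 had 56.7, 25.6 and 22.5 FPKM in ostie1-1 at stage 10, against 0, 0.600 and 10.0 FPKM in WT, and 6.62 and 30.9 FPKM in ostie1-1 at stage 12, against 0.0939, 0.191 and 0.348 FPKM in WT. LOC_Os03g59290 had 3.76, 3.21 and 2.76 FPKM in ostie1-1 at stage 10, against 0, 0 and 0.49975 FPKM in WT, and 2.68 and 3.22 FPKM in ostie1-1 at stage 12, against 0.0366, 0 and 0 FPKM in WT. In all of these 3 loci the highest WT library at stage 10 was replicate 3.

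The members with the largest shift towards stage 10 were LOC_Os02g45770, LOC_Os01g51270 and LOC_Os01g10110. LOC_Os02g45770 had 59.3, 115 and 119 FPKM in ostie1-1 at stage 10, against 3.02, 1.64 and 3.61 FPKM in WT, a ratio of means of 35.5. At stage 12 it had 45.1 and 50.1 FPKM in ostie1-1, against 22.2, 1.68 and 5.95 FPKM in WT, a ratio of 4.78. WT stage 12 replicate 1 alone set its stage 12 gap of 2.03. LOC_Os01g51270 had a ratio of 57.7 at stage 10 and 9.73 at stage 12, with values given below.

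**Figure D3:**
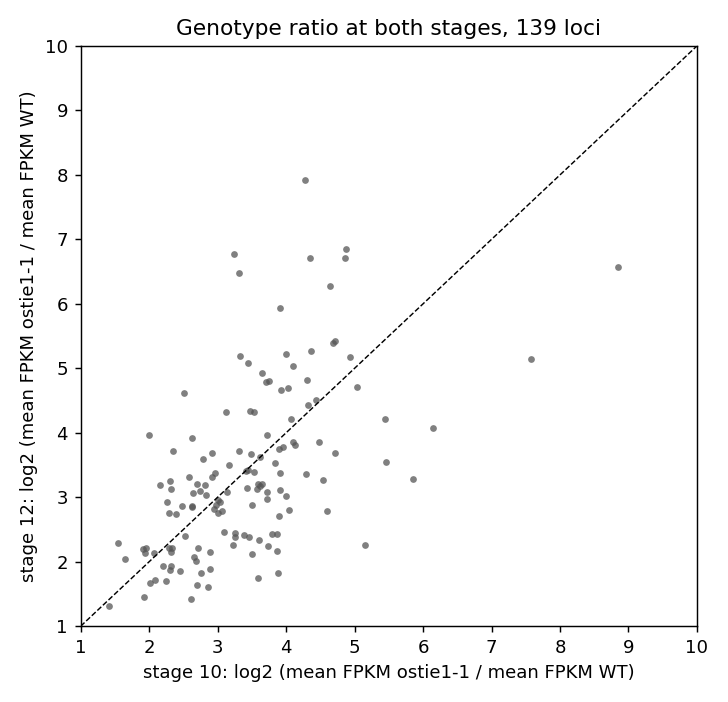
Log2 ratio of mean FPKM, ostie1-1 over WT, at stage 10 (horizontal) and stage 12 (vertical) for the 139 loci with a WT mean above 0 at both stages; each dot is a locus and the dashed line marks equal ratios. The dots lie on both sides of the line, 77 with the larger ratio at stage 10 and 62 at stage 12.

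Stage 12 was then compared with stage 10 within each genotype, a contrast that the rule did not use. Levels were scaled by median-of-ratios factors, transformed as log2(FPKM + 1) and fitted with limma over all 21279 loci with at least 1 FPKM in at least 2 libraries, all 144 members among them. The p-values were adjusted over all these loci (Benjamini-Hochberg), with 0.05 as the threshold, and fold changes of low loci are understated on this scale.

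In ostie1-1, 17 of the 144 members changed between the stages, 9 higher and 8 lower at stage 12. That is 11.8% of the members, near the 10.7% of all loci tested (2281 of 21279, 7.78% higher and 2.94% lower) and above the 7.11% of the other loci at the 2 FPKM floor. A share this near the background is not a result about the members. The median log2 fold change was -0.27 over the members and -0.04 over all loci tested, and 59 members had a positive value. The member median was -0.12 without ostie1-1 stage 10 replicate 1, -0.11 without ostie1-1 stage 12 replicate 1 and -0.47 without ostie1-1 stage 10 replicate 3. Over all loci it was -0.01, -0.04 and -0.03 in the same order. The counts depended on single libraries too. Without WT stage 10 replicate 3, which enters through the shared estimate of the spread, 40 members passed (15 higher and 25 lower), against 22.5% of all loci. Without ostie1-1 stage 12 replicate 1, 7 members passed (4.86%, against 3.85% of all loci). Without ostie1-1 stage 10 replicate 2, 10 passed (6.94%, against 5.82%).

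In WT, 7 of the 144 members changed between the stages, 4 higher and 3 lower at stage 12. That is 4.86%, against 2.62% of all loci tested (557 of 21279, 2.11% higher and 0.512% lower) and 1.61% of the other floor loci. The members met the filter through their ostie1-1 levels, which the rule set, whatever their level in WT. In WT 40 of them averaged under 1 FPKM at both stages, where log2(FPKM + 1) leaves little room for a call. The share is therefore not read as a result about the members. The median log2 fold change was -0.12 over the members and -0.04 over all loci, and 0.00 and 0.14 with unscaled FPKM, so the members' median lay below that of all loci under both while its sign depended on the scaling. Without WT stage 10 replicate 3 the member median turned to 0.17, against -0.02 over all loci. Then 95 members (66.0%, against 48.5% of all loci) had a positive value in place of 58. Of the members 6 rose and 1 fell (4.17% and 0.694%, against 1.89% and 0.522% of all loci). The member count was 0 without WT stage 12 replicate 3 (16 at an unadjusted p below 0.05 in limma), 1 without WT stage 10 replicate 2, 2 without WT stage 12 replicate 2, 3 without WT stage 12 replicate 1, also 3 when ostie1-1 stage 10 replicate 2 was dropped, and 4 without WT stage 10 replicate 1.

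Of the members that passed, 6 passed in both genotypes, all 6 in the same direction in each, while 11 passed in ostie1-1 and not in WT and 1 in WT and not in ostie1-1. The difference between the genotypes is the contrast that chose the loci, and it was not tested.

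LOC_Os01g50950 rose at stage 12 in both genotypes. It had 85.6 and 66.9 FPKM at stage 12 against 2.55, 2.15 and 6.35 FPKM at stage 10 in ostie1-1, which is a log2 change of 4.15 (SE 0.52, adjusted p = 0.000995). In WT it had 11.2, 9.14 and 25.1 FPKM at stage 12 against 0.253, 0 and 0.657 FPKM at stage 10 (3.26, SE 0.46, adjusted p = 0.0111). Every stage 12 library exceeded every stage 10 library of its genotype. Leaving out WT stage 10 replicate 2 or WT stage 12 replicate 3 ended the WT call (adjusted p = 0.0577 and 0.0608).

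LOC_Os01g55990 behaved likewise. It had 101 and 86.9 FPKM at stage 12 against 3.96, 2.61 and 13.5 FPKM at stage 10 in ostie1-1 (3.89, SE 0.57, adjusted p = 0.00206), and 40.3, 18.2 and 25.7 FPKM at stage 12 against 0.415, 0 and 1.25 FPKM at stage 10 in WT (3.93, SE 0.51, adjusted p = 0.00868). The stages did not overlap in either genotype. Leaving out WT stage 12 replicate 3 ended the WT call (adjusted p = 0.0608).

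LOC_Os11g24420 had 140 and 188 FPKM at stage 12 against 19.6, 7.56 and 2.63 FPKM at stage 10 in ostie1-1 (4.22, SE 0.69, adjusted p = 0.00341). In WT it had 11.04, 8.75 and 15.4 FPKM at stage 12 against 0.821, 0 and 0.887 FPKM at stage 10 (2.78, SE 0.61, adjusted p = 0.0393), a call that 8 of the 11 libraries left out in turn ended (adjusted p = 0.0550 to 0.208), as did testing with no filter on low values (0.125). The 3 stage 10 libraries of ostie1-1 were spread over several fold in this locus, all under both stage 12 libraries.

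LOC_Os01g51270 had 195 and 42.8 FPKM at stage 12 against 2.36, 6.14 and 32.9 FPKM at stage 10 in ostie1-1 (3.31, SE 0.81, adjusted p = 0.0239), and 17.6, 8.92 and 10.2 FPKM at stage 12 against 0, 0 and 0.717 FPKM at stage 10 in WT (3.11, SE 0.73, adjusted p = 0.0489). The ostie1-1 libraries of the 2 stages lay close at their nearest, 42.8 against 32.9 FPKM. The ostie1-1 call ended when stage 10 replicate 1, stage 10 replicate 2 or stage 12 replicate 1 of ostie1-1 was left out (adjusted p = 0.0639, 0.0849 and 0.222), and also with a pseudocount of 0.1 (0.0860), with no filter (0.0555) and with the ostie1-1 libraries alone (0.0712). The WT call ended when any one of the 6 WT libraries (adjusted p = 0.0539 to 0.200) or ostie1-1 stage 10 replicate 2 (0.0767) was left out, and with no filter (0.151).

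Among the falls, LOC_Os05g06480 had 30.4 and 98.6 FPKM at stage 12 against 255, 441 and 448 FPKM at stage 10 in ostie1-1 (-2.76, SE 0.61, adjusted p = 0.0148). In WT it had 12.9, 10.6 and 4.41 FPKM at stage 12 against 33.7, 36.1 and 66.6 FPKM at stage 10 (-2.42, SE 0.55, adjusted p = 0.0424). In LOC_Os09g20000, whose values stand above, the log2 fold change was -2.56 in ostie1-1 (SE 0.58, adjusted p = 0.0164) and -2.73 in WT (SE 0.52, adjusted p = 0.0243). In both loci the level was lower at stage 12 in every library of each genotype than in any stage 10 library of that genotype.

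LOC_Os04g55710 fell in WT (-2.54, SE 0.56, adjusted p = 0.0392) and had -2.16 in ostie1-1 (SE 0.63), with an adjusted p at the threshold that did not pass. Leaving out ostie1-1 stage 10 replicate 2 ended the ostie1-1 calls of LOC_Os05g06480 and LOC_Os09g20000 (adjusted p = 0.0561 and 0.0579), and so did leaving out ostie1-1 stage 12 replicate 1 (0.160 and 0.149). The WT call of LOC_Os04g55710 ended when any one of the 6 WT libraries or of the 3 ostie1-1 stage 10 libraries was left out (adjusted p = 0.0543 to 0.209). That of LOC_Os05g06480 ended under the same libraries other than WT stage 10 replicate 1 (adjusted p = 0.0616 to 0.226). That of LOC_Os09g20000 ended without WT stage 10 replicate 2, WT stage 12 replicate 2 or WT stage 12 replicate 3 (adjusted p = 0.0636, 0.0619 and 0.136). With no filter the WT calls of LOC_Os04g55710, LOC_Os05g06480 and LOC_Os09g20000 ended as well (adjusted p = 0.127, 0.134 and 0.0827), and likewise with the WT libraries alone (0.0748, 0.103 and 0.0975).

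LOC_Os01g10110 fell in ostie1-1, with 21.3 and 24.7 FPKM at stage 12 against 113, 124 and 153 FPKM at stage 10 (-2.48, SE 0.30, adjusted p = 0.000945). In WT, where it stayed under 1 FPKM in all 6 libraries, the log2 fold change was -0.12 (SE 0.27, adjusted p = 0.878). This ostie1-1 call passed whichever single library was left out, as did those of LOC_Os11g24420, LOC_Os01g50950 and LOC_Os01g55990.

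**Figure D4:**
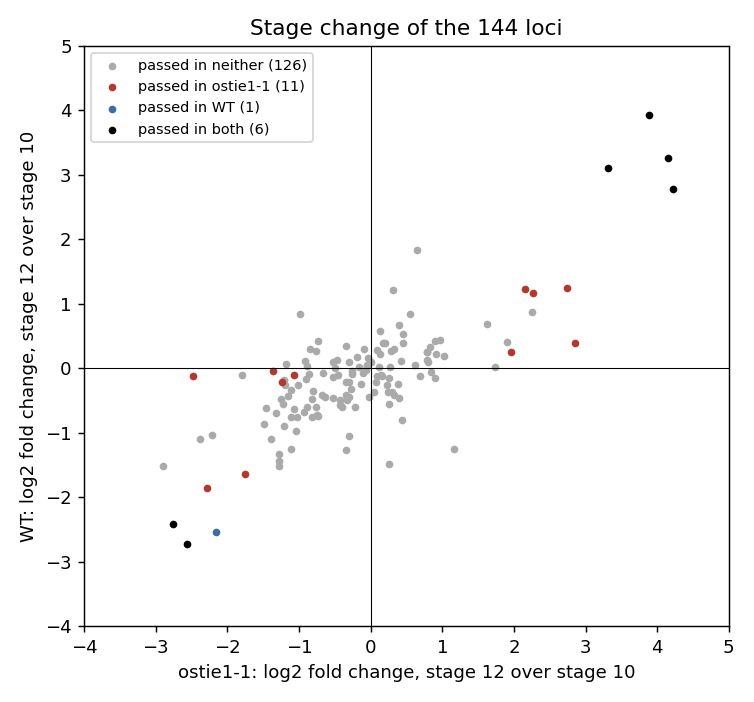
Log2 fold change of stage 12 over stage 10 in ostie1-1 (horizontal) and WT (vertical) for the 144 loci, on the log2(FPKM + 1) scale; colours mark loci that passed limma in both genotypes (6), in ostie1-1 and not in WT (11), in WT and not in ostie1-1 (1) or in neither (126). The loci that passed in both lie at the far ends, 4 at the upper right and 2 at the lower left.

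The position of the loci, which the rule did not use, was uneven over the chromosomes. Chromosome 1 held 38 of the 144 (26.4%), against 13.8% of the 12284 loci at the floor, and 2.24% of its floor loci were members, against 1.17% over the genome. Chromosome 4 held 19 (13.2%, against 8.52%), chromosome 11 held 4 (2.78%, against 5.62%) and chromosome 5 held 6 (4.17%, against 7.99%). The chromosome 1 members ran from LOC_Os01g01520 to LOC_Os01g72810, so they were spread along its numbering. Among loci raised at stage 10 by the same gap and level (395, or 0.706% of all loci) 68 (17.2%) lay on chromosome 1. Among those raised at stage 12 (855, or 1.53%) 149 (17.4%) did. Both sets include the 144, so 38 of the 68 and 38 of the 149 were members. The shares of these sets are therefore not separate from that of the members. Of the 41 loci lowered at both stages by the mirrored rule, 3 (7.32%) lay there. The chromosome 1 share was 19.4% to 27.0% of the loci found under the other settings of the rule. Each of these sets held all or most of the 144 or was a part of them, so these shares are no separate support. With a gap of 1.5 times, 49 of 252 loci lay on chromosome 1, and the 38 members there were among the 49. Without ostie1-1 stage 12 replicate 1 it was 48 of 247, again with the 38 among them. These shares are descriptions, and no test was made on them.

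**Figure D5:**
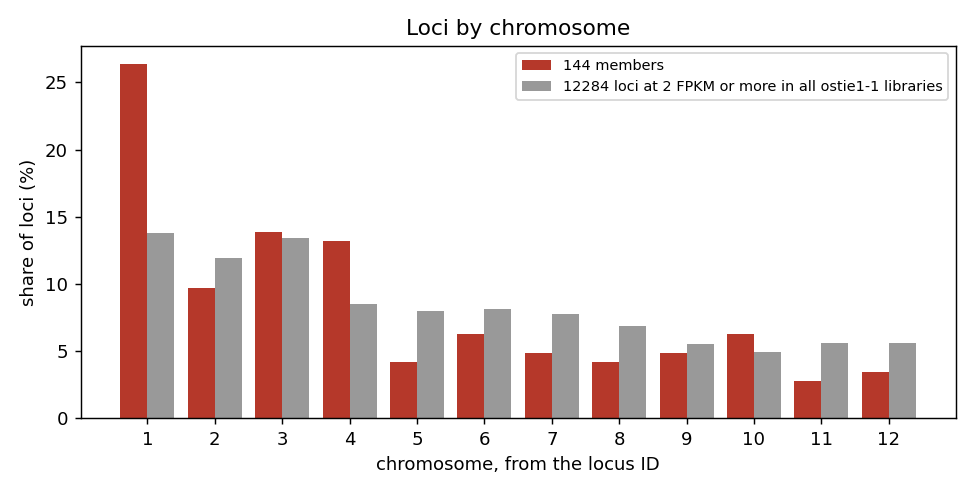
Share of loci on each chromosome, as coded in the locus ID, for the 144 members (red) and for the 12284 loci with at least 2 FPKM in all 5 ostie1-1 libraries (grey), in percent. The largest distance is on chromosome 1, with 26.4% of the members and 13.8% of the floor loci.

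Of the loci raised at stage 10, 36.5% were also raised at stage 12, and of those raised at stage 12, 16.8% were also raised at stage 10, which are the 144. Of the 132 loci lowered at stage 10 and the 859 lowered at stage 12, the 41 shared were 31.1% and 4.77%. WT stage 10 replicate 3 bore on the lowered loci as well: without it 556 loci were lowered at both stages.

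Members that directly followed each other in the table's list of loci formed 3 pairs. LOC_Os10g28060, given above, was followed by LOC_Os10g28070, which had 23.5, 10.9 and 4.05 FPKM in ostie1-1 at stage 10, against 0, 0.532 and 0.625 FPKM in WT. In both of these neighbours ostie1-1 stage 10 replicate 1 was the highest library and replicate 3 the lowest of its group. At stage 12 LOC_Os10g28060 had 5.42 and 10.6 FPKM in ostie1-1, against 0.990, 0.335 and 0.218 FPKM in WT, and LOC_Os10g28070 had 3.56 and 8.64 FPKM in ostie1-1 and was listed at 0 in WT.

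LOC_Os12g40890 and LOC_Os12g40900 were the second pair. LOC_Os12g40890 had 40.2, 49.8 and 42.4 FPKM in ostie1-1 at stage 10, against 2.43, 2.39 and 5.20 FPKM in WT, and 34.9 and 50.2 FPKM in ostie1-1 at stage 12, against 8.78, 2.76 and 4.76 FPKM in WT. LOC_Os12g40900 had 2.52, 6.81 and 6.70 FPKM in ostie1-1 at stage 10, against 0.050001, 0.147 and 0.865 FPKM in WT, and 12.3 and 8.43 FPKM in ostie1-1 at stage 12, against 1.18, 0.957 and 0.848 FPKM in WT. LOC_Os12g40890 stood above LOC_Os12g40900 in every library.

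LOC_Os10g40740 and LOC_Os10g40770 were the third pair. LOC_Os10g40740 had 5.50, 3.96 and 3.82 FPKM in ostie1-1 at stage 10, against 0.713, 0.844 and 0.471 FPKM in WT, and 6.88 and 3.63 FPKM in ostie1-1 at stage 12, against 1.196, 1.54 and 0.669 FPKM in WT. LOC_Os10g40770 had 33.7, 44.6 and 34.3 FPKM in ostie1-1 at stage 10, against 1.57, 2.26 and 3.24 FPKM in WT, and 17.7 and 13.4 FPKM in ostie1-1 at stage 12, against 3.64, 0.529 and 1.57 FPKM in WT. With LOC_Os10g40810 and LOC_Os10g41060 they made 4 members among the 42 floor loci of a window of fixed length in locus numbers. The window began at LOC_Os10g40740 and ran on past LOC_Os10g41060.

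The densest stretch, named after its values were seen, lay near the end of chromosome 4. There, 6 members fell among the 44 floor loci of a window of the same length that began at LOC_Os04g58570. They were LOC_Os04g58570, LOC_Os04g59050, LOC_Os04g59120, LOC_Os04g59190, LOC_Os04g59330 and LOC_Os04g59380. LOC_Os04g59190 had 129, 109.7 and 120.4 FPKM in ostie1-1 at stage 10, against 6.09, 4.39 and 16.4 FPKM in WT, and 253 and 144 FPKM in ostie1-1 at stage 12, against 14.9, 50.1 and 60.2 FPKM in WT. LOC_Os04g59380 had 44.4, 35.7 and 23.4 FPKM in ostie1-1 at stage 10, against 0.473, 0.591 and 1.30 FPKM in WT, and 12.5 and 16.9 FPKM in ostie1-1 at stage 12, against 2.73, 0.470 and 0.579 FPKM in WT. Neither passed the stage test in ostie1-1, where the log2 fold change of stage 12 over stage 10 was 0.64 in LOC_Os04g59190 (SE 0.73, adjusted p = 0.636) and -1.18 in LOC_Os04g59380 (SE 0.50, adjusted p = 0.173).

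Nearly all members were loci with 1 transcript model, 143 of 144 (99.3%), against 96.2% of the other loci at the floor and 88.5% of all loci. A share this near that of the other floor loci is not a result about the members. The exception, LOC_Os03g03034, had 20.9, 34.7 and 26.6 FPKM in ostie1-1 at stage 10, against 1.16, 0.207 and 3.66 FPKM in WT, and 62.4 and 120.4 FPKM in ostie1-1 at stage 12, against 4.82, 2.54 and 3.19 FPKM in WT. Taking the highest model of each locus in place of the sum gave the same 144 loci, but this choice could change only loci with several models. How the authors' counting treated reads shared by models is not given in the sources used here, and its part in this share was not tested.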

How the data were processed

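RNA of rice anthers was sequenced in 11 libraries. The submitters' processing notes name HISAT2 2.2.0, featureCounts and the build IRGSP-1.0. The deposited values are FPKM per MSU transcript model, computed by the authors; how counts became FPKM is not given in the sources used here. FPKM of the 66338 models were summed per locus (55986 loci). Depth is known only relative to another library, so no counting interval is given. Groups and replicate numbers came from the sample titles, and, since no label names separate plants, p-values reflect only the spread among these libraries, which may be technical.

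The rule (gap of at least 2 times at both stages, at least 2 FPKM in ostie1-1) was applied to the deposited FPKM. The stage contrasts used median-of-ratios scaling (factors 0.734 to 1.33), log2(FPKM + 1), loci with 1 FPKM in 2 libraries, and limma 3.58.1 in R 4.3.3 (4 group means, all 11 libraries, trended variance, Benjamini-Hochberg), tested on simulated data. Alternatives changed scaling, pseudocount, filter, libraries, the replicate block and the rule's limits.

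The members, lists and tests were chosen with earlier results of these data known. Loci named are the 6 highest, the 6 with the largest gap, those at most 0.1 FPKM in WT, the 3 largest stage changes that passed in each direction and genotype, the 3 largest shifts of the ratio each way, the 3 nearest the limit on each side, and neighbouring pairs; others are said to be named after their values were seen or are examples of a count.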

Additional observations from a re-analysis of the deposited data

Results flagged for a closer look

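In 1 of the 144 loci, LOC_Os03g21400, the stage change ran in opposite directions in the genotypes with no overlap between libraries. It had 14.7 and 14.1 FPKM at stage 12 against 24.2, 26.8 and 21.7 FPKM at stage 10 in ostie1-1, a log2 fold change of -0.74 (SE 0.36, limma adjusted p = 0.229). In WT it had 3.03, 1.42 and 1.79 FPKM at stage 12 against 1.17, 0.607 and 1.23 FPKM at stage 10, a log2 fold change of 0.42 (SE 0.32, limma adjusted p = 0.608). Neither change passed the test, and the difference between the genotypes was not tested.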

How the results depend on the processing

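The rule gave 252 loci with a gap of 1.5 times, 74 with a gap of 3 times and 95 with a floor of 5 FPKM, against 144. It gave 154 with TPM (136 shared) and 141 with median-of-ratios scaling (114 shared, 30 lost). With 1 library left out it gave 149 to 425 loci, the most without WT stage 10 replicate 3, then 247 without ostie1-1 stage 12 replicate 1. The count of members changed between stages in ostie1-1 (17) was 11 with a pseudocount of 0.1 (7.64%, against 9.17% of all loci), and 7 to 40 with 1 library left out. That in WT (7) was 4 with the WT libraries alone, 2 with no filter on low values, 4 with the replicate number as a block, and 0 to 7 with 1 library left out. Over all loci tested, the 2281 calls in ostie1-1 ranged from 819 to 4793 with 1 library left out, and the 557 in WT from 9 to 577, with 62 where no filter was applied and 203 with the WT libraries alone. The replicate block left 12 members in ostie1-1 (8.33%, against 7.52% of all loci) and the 4 in WT (2.78%, against 2.15%). It ended the ostie1-1 call of LOC_Os09g20000 (adjusted p = 0.0512) and the WT calls of LOC_Os04g55710 (0.0668), LOC_Os05g06480 (0.0634) and LOC_Os11g24420 (0.0696). The labels do not say that a number pairs samples. Deviations of same-numbered libraries had correlations of -0.469 to 0.147 over 15 pairs (median -0.09). Those of the 30 other pairs ran from -0.469 to 0.469 (median 0.032). Deviations within a group of 2 or 3 libraries are tied to each other, so these values cannot decide whether the numbers pair samples. Over the alternatives of the named stage changes, 192 values kept the call and 60 lost it, 6 of them with no filter, 4 with the libraries of the genotype alone, 4 with the block, 1 with a pseudocount of 0.1 and the rest with a library left out. None reversed its sign, and the cause of the moved counts was not tested. Depth limits the loci near 0 in WT, whose ratios rest on few fragments.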
